A study of Homo sapiens with 4 samples.

Results

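Feedback inhibitors and transcriptional targets of the ERK pathway were followed in human cells at day 2 of hematopoietic differentiation. The genes were chosen by symbol, 10 of the 17894 genes measured: SPRY1, SPRY2, SPRY4, SPRED1, DUSP4, DUSP5, DUSP6, ETV4, ETV5 and EGR1. All 10 were found and all passed the filter on low values described below. The cells were H1, a human embryonic stem cell line, differentiated on mAGM-S3 mouse stromal cells and sorted by the human antigen TRA-1-85 before RNA-SEQ. The 4 libraries comprised 1 of wild-type control cells, 1 of wild-type cells that received 20 ng/mL R-spondin2 for 1 day, and 2 of untreated LGR4-/- cells. The last 2 are written LGR4-/- 1 and LGR4-/- 2. R-spondin2 is a secreted agonist of WNT signaling and LGR4 is a receptor for R-spondins. The labels do not say whether the LGR4-/- libraries come from separate clones, and the columns of their files are headed E1 and A3.

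In the ERK pathway, a growth factor such as an FGF activates its receptor, and the signal runs through RAS, RAF and MEK to the kinase ERK. ERK then acts on transcription factors of the ETS family, and the genes they switch on include inhibitors of the pathway itself, so that the level of these RNAs is widely read as a trace of pathway activity. In pluripotent stem cells FGF-ERK signaling takes part in self-renewal, and in the early embryo it is required for cells to leave the primitive streak as mesoderm.

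The upstream sequences of SPRY1 and EGR1, which lay farthest below control with R-spondin2, and of DUSP6, which lay farthest above control in LGR4-/- cells, are shown first, to show where these windows do and do not hold letters of 2 sites through which ERK is known to act on its targets. The windows cover 250 bases before to 50 bases after a RefSeq start site and are written 5' to 3' on the strand of the gene. Capitals mark a CArG box, the site of the serum response factor SRF, or the letters CCGGAA, a core of many ETS sites, searched on both strands. The EGR1 window lies at chr5:138465229-138465528 on the plus strand, the SPRY1 window at chr4:123398136-123398435 on the plus strand and the DUSP6 window at chr12:89352452-89352751 on the minus strand, all in GRCh38.p14.
EGR1: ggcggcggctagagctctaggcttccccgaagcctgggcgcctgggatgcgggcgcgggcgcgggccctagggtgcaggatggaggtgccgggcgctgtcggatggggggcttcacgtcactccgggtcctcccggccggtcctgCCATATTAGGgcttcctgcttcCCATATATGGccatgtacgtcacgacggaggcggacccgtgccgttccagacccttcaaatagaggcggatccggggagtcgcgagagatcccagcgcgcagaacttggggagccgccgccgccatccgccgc
SPRY1: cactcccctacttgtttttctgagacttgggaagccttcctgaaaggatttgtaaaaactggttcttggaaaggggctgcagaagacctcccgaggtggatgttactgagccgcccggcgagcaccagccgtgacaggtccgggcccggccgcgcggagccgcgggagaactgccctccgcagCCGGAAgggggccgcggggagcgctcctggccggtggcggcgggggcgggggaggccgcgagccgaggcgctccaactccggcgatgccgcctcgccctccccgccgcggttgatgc
DUSP6: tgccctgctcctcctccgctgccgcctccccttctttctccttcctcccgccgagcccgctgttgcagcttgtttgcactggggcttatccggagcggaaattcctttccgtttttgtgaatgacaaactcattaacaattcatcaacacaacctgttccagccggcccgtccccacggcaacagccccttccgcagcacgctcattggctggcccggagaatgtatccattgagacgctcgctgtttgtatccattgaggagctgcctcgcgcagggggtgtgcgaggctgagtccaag
The EGR1 window held 2 CArG boxes, CCATATTAGG and CCATATATGG, which began 105 and 83 bases before the start site. Of all 35116 promoter windows of this length, 1.29% held a CArG box. The SPRY1 window, at the downstream of its listed starts, held CCGGAA once, 67 bases before the start site. The letters were found in 17.2% of all windows, and the DUSP6 window held neither motif. Windows were searched for 6 of the 10 genes, with 9 windows in all. Among these 6, CCGGAA was found for SPRY1 and SPRY2 only. No window of DUSP4, DUSP5, ETV4 or ETV5 was searched, so the counts do not cover them. These are matches of letters and no binding was measured here.

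Expression was deposited as FPKM, the fragments assigned to a gene per kilobase of transcript, scaled to the mapped fragments of the library, which allows levels of different genes to be compared per length. Differences were taken on the scale of log2(FPKM + 1), where 1 is a 2-fold difference for a well expressed gene and the change of low genes is understated. The background is formed by 12697 genes that averaged 1 FPKM or more over the 4 libraries. Control and R-spondin2 had 1 library each, so that their comparison has no replicate check. Depth is not given in FPKM and was estimated from the low values at 8680000 to 8910000 reads per library. Intervals given with a ratio are 95% exact intervals for the reads implied by these depths, cover counting error only and do not include the spread between cultures.

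The libraries differed in their cell type markers, and these values stand beside every result below. LGR4 itself was at 21.8 FPKM in control, 24.3 FPKM with R-spondin2, 7.40 FPKM in LGR4-/- 1 and 13.95 FPKM in LGR4-/- 2, so that its RNA was lower in both LGR4-/- libraries but present. A value per gene does not show the edited site. All 9 primitive streak and mesoderm markers examined were lower than control in both LGR4-/- libraries, against 35.5% of all genes tested. Their summed level was 1114, 1451, 393.9 and 612.2 FPKM in the same order of libraries. All 8 pluripotency markers were higher than control in both LGR4-/- libraries, against 42.5% of all genes tested. They summed to 1389, 1145, 2210 and 2068 FPKM. With R-spondin2 7 of the 8 pluripotency markers were lower than control and 1 was higher. SOX2 had the largest difference, at 19.9 FPKM in control and 5.58 FPKM with R-spondin2. Of the 9 primitive streak and mesoderm markers 8 were higher with R-spondin2 and 1 was lower, where 47.8% of all genes tested were higher. Of 6 endoderm markers 3 passed the filter, and the list summed to 63.2, 66.2, 40.3 and 44.4 FPKM. SOX17 (47.1, 49.9, 23.6 and 27.2 FPKM) and CXCR4 (5.90, 6.90, 3.58 and 4.12 FPKM) were lower than control in both LGR4-/- libraries, and FOXA2 (9.05, 8.44, 11.9 and 11.6 FPKM) was higher. Of 8 blood and endothelial markers 4 passed, with sums of 15.6, 17.1, 12.7 and 14.9 FPKM. RUNX1 was lower than control by over 2-fold in both LGR4-/- libraries (3.96, 3.71, 0.61 and 1.29 FPKM). HBE1 was higher in both (6.76, 8.67, 7.22 and 8.85 FPKM). PTPRC was slightly lower in both (1.52, 1.49, 1.29 and 1.18 FPKM). SPN lay on both sides of control (2.67, 2.31, 2.71 and 2.35 FPKM). CDH5 and CD34 were at or below 0.22 FPKM in every library. The 6 neural markers summed to 107.9, 120.2, 81.6 and 94.8 FPKM, nearly all of it NES (105.9, 117.7, 79.5 and 92.6 FPKM). SOX10 was at 1.37 to 1.54 FPKM, and SOX1 and PAX6 were at or below 0.47 FPKM. Of 8 stromal markers 6 passed, with sums of 237.8, 297.4, 216.4 and 247.5 FPKM. Of these 6, 3 were lower and 2 higher than control in both LGR4-/- libraries. With R-spondin2 5 of the 6 were higher than control and 1 was lower (median difference 0.40). COL3A1 had the largest of these differences, at 4.65 FPKM in control and 9.86 FPKM with R-spondin2. LUM was higher than control with R-spondin2 and lower in both LGR4-/- libraries (5.49, 9.11, 0.16 and 1.45 FPKM). THY1 went the opposite way (44.0, 36.1, 54.3 and 64.5 FPKM). COL1A1 was above control in the other libraries (64.0, 83.6, 74.8 and 74.6 FPKM). The part of cell state in the differences below was not tested, and in bulk RNA fewer cells of a type and less RNA per cell cannot be told apart.

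All 10 genes were expressed at day 2, from 3.72 FPKM for ETV5 in LGR4-/- 1 to 61.7 FPKM for EGR1 in the same library. In control the order of levels was EGR1, ETV4, DUSP5, SPRY4, SPRY2, DUSP6, SPRED1, DUSP4, SPRY1 and ETV5. Over the 4 libraries the ranges of EGR1 (42.3 to 61.7 FPKM) and ETV4 (43.5 to 60.3 FPKM) overlapped, as did those of SPRY4 (21.5 to 31.4 FPKM) and SPRY2 (19.4 to 25.5 FPKM). The range of DUSP5 (20.9 to 49.3 FPKM) overlapped all of these, and that of DUSP6 (15.7 to 25.1 FPKM) overlapped SPRY4 and SPRY2. The order in control thus did not hold in every library. ETV5, at 3.72 to 4.66 FPKM, lay below every other member in every library. SPRED1 varied least, with its highest library at 1.10 times its lowest, and DUSP5 most, at 2.36 times. The plot of FPKM by gene and library shows the levels and the spread of each gene.

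**Figure D1:**
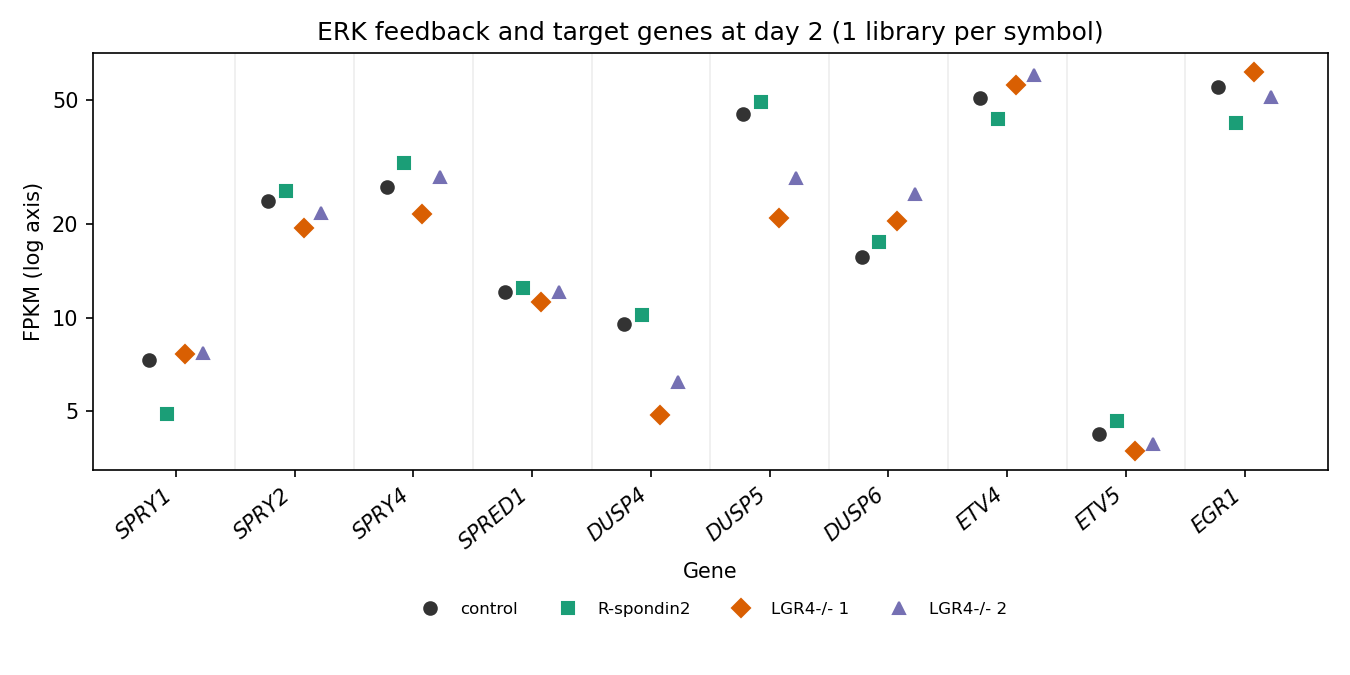
Level of each ERK feedback and target gene in FPKM on a log axis, with 1 point per library: control (circle), R-spondin2 (square), LGR4-/- 1 (diamond) and LGR4-/- 2 (triangle). SPRED1 and ETV5 sit in tight clusters. For DUSP4, DUSP5, SPRY2 and ETV5 both LGR4-/- points lie below the control and R-spondin2 points, by the widest gaps for DUSP4 and DUSP5.

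R-spondin2 against control asks whether 1 day of the ligand altered these readouts. No member differed by 2-fold in either direction, where 28 of 12697 genes did (0.221%), and none by 1.5-fold, where 2.01% of genes did. Of the 10 genes 7 were higher with R-spondin2, against 47.8% of all genes tested, and their median difference was 0.09, against -0.008 over all genes tested. SPRY4 stood highest of the 10 at 0.24 and SPRY1 lowest at -0.49.

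The Sprouty proteins, encoded by SPRY1, SPRY2 and SPRY4, are induced by growth factors and block the pathway between receptor and RAF. Their genes lay on different sides of control with R-spondin2. SPRY1 (NCBI gene 10252) was at 7.30 FPKM in control and 4.89 FPKM with R-spondin2, against 7.65 and 7.73 FPKM in LGR4-/- 1 and 2. The R-spondin2 library was thus the low one, and control and both LGR4-/- libraries lay close together. The FPKM ratio of R-spondin2 to control was 0.670 (interval 0.516 to 0.869), and 290 of the 12697 genes had a lower difference. SPRY1 rested on few reads, 100 to 160 per library at its shortest transcript. SPRY4 (NCBI gene 81848) was at 26.4 FPKM in control and 31.4 FPKM with R-spondin2, a ratio of 1.19 (interval 1.06 to 1.33), against 21.5 and 28.3 FPKM in the LGR4-/- libraries. Here the R-spondin2 library was the highest and the LGR4-/- libraries lay on either side of control. SPRY2 (NCBI gene 10253), at 23.8 and 25.5 FPKM, had a ratio of 1.07 whose interval, 0.940 to 1.22, holds 1, so that no difference was detectable at this depth. SPRED1, a relative of the Sprouty proteins that inhibits RAF activation together with neurofibromin, was at 12.1 FPKM in control, 12.4 FPKM with R-spondin2, 11.3 FPKM in LGR4-/- 1 and 12.1 FPKM in LGR4-/- 2. It was the steadiest member, and none of its ratios to control had an interval that left out 1.

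EGR1 (NCBI gene 1958), an immediate-early zinc finger factor, had the second largest difference from control with R-spondin2. Its level was 55.3 FPKM in control, 42.3 FPKM with R-spondin2, 61.7 FPKM in LGR4-/- 1 and 51.2 FPKM in LGR4-/- 2. The R-spondin2 library was the lowest of the 4, and control lay between the LGR4-/- libraries. The ratio to control was 0.765 (interval 0.708 to 0.826), at 1546 and 1152 implied reads. Immediate-early RNAs can also follow cell handling. Of the 18 immediate-early and stress genes that passed the filter 11 were higher and 7 lower with R-spondin2. Their median difference was 0.04, and 47.8% of all genes tested were higher. The heat shock genes of the list were all among the 11 higher, so these counts do not describe the immediate-early genes alone. FOS, the immediate-early gene with the largest difference in that list, was at 91.9 FPKM in control and 66.2 FPKM with R-spondin2, a ratio of 0.720 (interval 0.669 to 0.775). IER5, at 20.2 and 26.6 FPKM, and GADD45B, at 32.9 and 41.8 FPKM, were higher, and ZFP36 was at 8.32 and 6.50 FPKM. EGR1 and FOS thus differed the same way between these libraries while others of the list went the opposite way. The part of handling in these values was not tested.

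ETV4 and ETV5 encode ETS factors of the PEA3 group that act downstream of FGF signals. ETV4 (NCBI gene 2118) was at 50.7 FPKM in control, 43.5 FPKM with R-spondin2, 55.9 FPKM in LGR4-/- 1 and 60.3 FPKM in LGR4-/- 2. The R-spondin2 library was the lowest and the LGR4-/- libraries the highest. Its ratio was 0.858 (interval 0.740 to 0.989) with R-spondin2, 1.10 (interval 0.961 to 1.26) in LGR4-/- 1 and 1.19 (interval 1.04 to 1.36) in LGR4-/- 2. ETV5 (NCBI gene 2119), at 4.24, 4.66, 3.72 and 3.94 FPKM, had intervals that hold 1 in all comparisons with control. ETV4 shares exon sequence with DHX8 on the opposite strand, ETV5 with DGKG on its own strand and DUSP6 with the antisense gene AC024909.2, so that their reads may be mixed if strand or overlap was not resolved in counting.

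LGR4-/- against control asks whether the receptor's loss moved the same genes. In a fit across all genes (limma), 0 of 12697 genes (0%), and so none of the 10, passed an adjusted p of 0.05. The fit has 1 residual degree of freedom, from the LGR4-/- libraries alone, and control is assumed to vary like them. At an unadjusted p under 0.05 there were 2262 genes (17.8%) and 3 of the 10, DUSP4, DUSP5 and DUSP6. When control and R-spondin2 were pooled as wild type, which treats the R-spondin2 library as a replicate of control, 1349 genes passed the adjusted threshold, among them DUSP4 and DUSP5, each at an adjusted p of 0.035 from limma. By the 2-fold rule in both LGR4-/- libraries none of the 10 was called, where 1.32% of genes were. Of the 10, 4 were lower in both libraries, against 35.5% of genes, and 3 were higher in both, against 42.5%. The other three, SPRY4, SPRED1 and EGR1, lay on both sides of control. The median difference of the 10, taking the mean of both LGR4-/- libraries, was -0.07, against 0.02 over all genes tested.

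**Figure D2:**
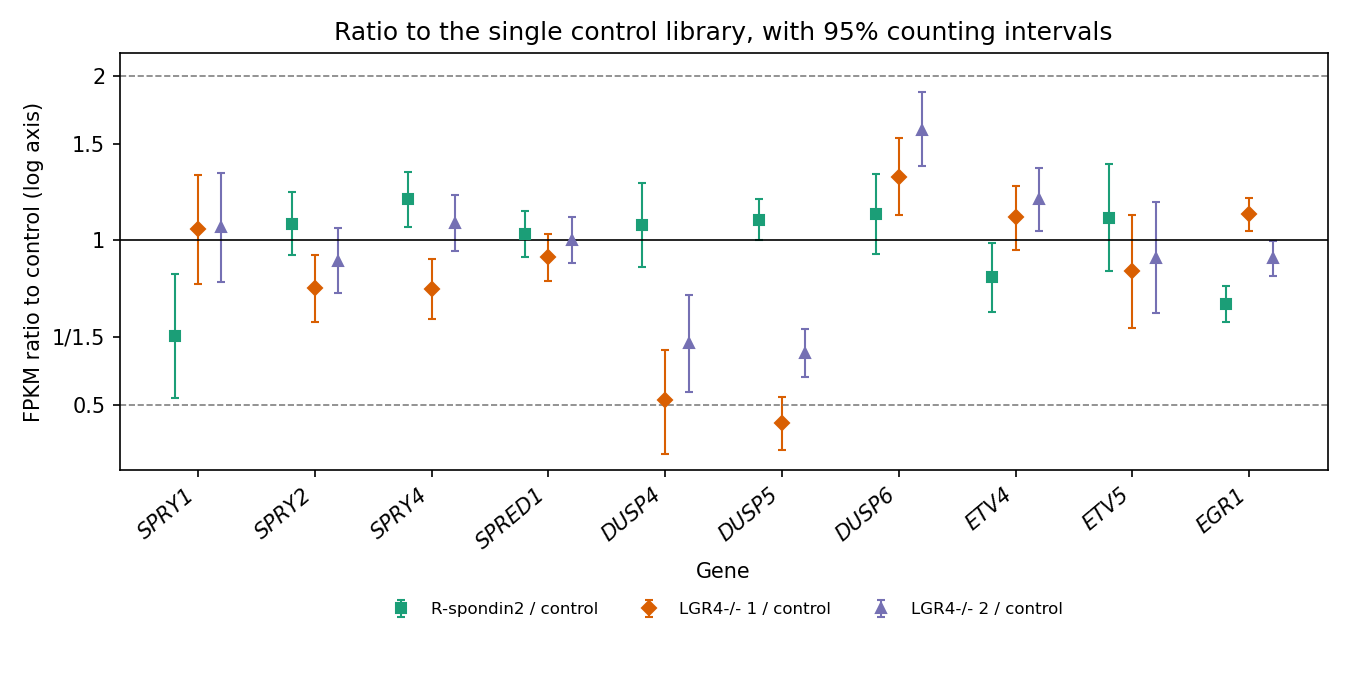
FPKM ratio to control for each gene on a log axis, with R-spondin2 (squares), LGR4-/- 1 (diamonds) and LGR4-/- 2 (triangles); bars are 95% exact intervals for counting error, the solid line is a ratio of 1 and dashed lines mark 2-fold. DUSP4 and DUSP5 lie below 1 in both LGR4-/- libraries and DUSP6 lies above 1 in both.

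The 3 dual-specificity phosphatases, which remove phosphate from ERK, parted in the LGR4-/- libraries. DUSP5 (NCBI gene 1847) encodes a nuclear phosphatase that acts on ERK. The gene spans 110497838 to 110511544 on chromosome 10 of GRCh38, by GENCODE release 29. It was at 45.2 FPKM in control, 49.3 FPKM with R-spondin2, 20.9 FPKM in LGR4-/- 1 and 28.1 FPKM in LGR4-/- 2. Both LGR4-/- libraries lay below both wild-type libraries, as they also did for DUSP4, SPRY2 and ETV5. The share of all genes in this order was not counted. The ratios to control were 0.463 (interval 0.415 to 0.517) and 0.623 (interval 0.564 to 0.689), and the fitted difference was -0.87 ± 0.21 (SE; limma adjusted p = 0.18). On the log2(FPKM + 1) scale DUSP5 was the 1 member lower by at least 1.5-fold in both LGR4-/- libraries, where 3.09% of genes were, and 275 of the 12697 genes had a lower mean difference.

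DUSP4 (NCBI gene 1846) encodes another nuclear phosphatase, with ERK and JNK among its substrates. Its levels were 9.55 FPKM in control, 10.2 FPKM with R-spondin2, 4.87 FPKM in LGR4-/- 1 and 6.21 FPKM in LGR4-/- 2. As for DUSP5, SPRY2 and ETV5, both LGR4-/- libraries lay below the wild-type ones and LGR4-/- 1 was the lower. The ratios to control were 0.510 (interval 0.408 to 0.632) and 0.650 (interval 0.529 to 0.793), with a fitted difference of -0.70 ± 0.17 (SE; limma adjusted p = 0.18). DUSP4 missed the 1.5-fold limit on the log2(FPKM + 1) scale, at -0.55 in LGR4-/- 2, through the pseudocount, since its FPKM ratios lie past that limit in both libraries. With R-spondin2 the ratio was 1.07 (interval 0.894 to 1.27) for DUSP4 and 1.09 (interval 1.00 to 1.19) for DUSP5.

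DUSP6 (NCBI gene 1848) encodes a cytoplasmic phosphatase selective for ERK and is the phosphatase gene most often used as a readout of FGF signals. It was at 15.7 FPKM in control, 17.5 FPKM with R-spondin2, 20.6 FPKM in LGR4-/- 1 and 25.1 FPKM in LGR4-/- 2. The LGR4-/- libraries were thus the high ones, in contrast to DUSP4 and DUSP5. The ratios to control were 1.31 (interval 1.11 to 1.54) and 1.59 (interval 1.37 to 1.86), and the fitted difference was 0.50 ± 0.16 (SE; limma adjusted p = 0.24), with 758 genes higher. The ratio of DUSP5 to DUSP6 within a library, a comparison chosen after the values were seen and free of any scaling between libraries, was 2.87 in control, 2.81 with R-spondin2, 1.02 in LGR4-/- 1 and 1.12 in LGR4-/- 2. DUSP5 and DUSP4, by contrast, kept a ratio of 4.29 to 4.83 over all 4 libraries.

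The genes with the profile nearest to that of DUSP6 over the 4 libraries, by the distance between log2(FPKM + 1) values centred on each gene's mean, were ELOVL6 (distance 0.083), ACYP1 (0.101) and EPS8L2 (0.107) among 9028 genes averaging 5 FPKM or more. With 4 libraries such likeness is common, and 67 genes lay within a distance of 0.2. The nearest of the other ERK genes was ETV4, at 0.312 with 564 genes nearer, and the farthest was DUSP5, at 1.36 with 8819 genes nearer.

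The remaining members lay nearer to control in the LGR4-/- libraries than DUSP4, DUSP5 and DUSP6. SPRY4 had ratios of 0.814 (interval 0.718 to 0.924) in LGR4-/- 1 and 1.07 (interval 0.956 to 1.21) in LGR4-/- 2. SPRY2 was at 19.4 and 21.8 FPKM, with ratios of 0.817 (interval 0.710 to 0.941) and 0.916 (interval 0.800 to 1.05). EGR1 had ratios of 1.12 (interval 1.04 to 1.20) in LGR4-/- 1 and 0.927 (interval 0.861 to 0.996) in LGR4-/- 2, so that counting error was smaller than the difference between the libraries of 1 genotype. SPRY1, at ratios of 1.05 and 1.06, had intervals that hold 1.

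Between the LGR4-/- libraries, 9 of the 10 genes were higher in LGR4-/- 2, against 49.2% of all genes tested, and EGR1 was the exception. The differences ran from -0.26 for EGR1 to 0.41 for DUSP5, with a median of 0.13. For 5 genes, SPRY4, DUSP4, DUSP5, DUSP6 and EGR1, the counting interval of the ratio left out 1. These intervals cover counting error only and were not computed over all genes, so this count has no background to set it against. DUSP4 and DUSP5 were nearer to control in LGR4-/- 2, the library with more LGR4 RNA and more mesoderm marker RNA, whereas DUSP6 was farther from it. LGR4-/- 2 was nearer to control over all genes as well. In it 191 genes differed from control by 2-fold, against 448 genes in LGR4-/- 1.

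**Figure D3:**
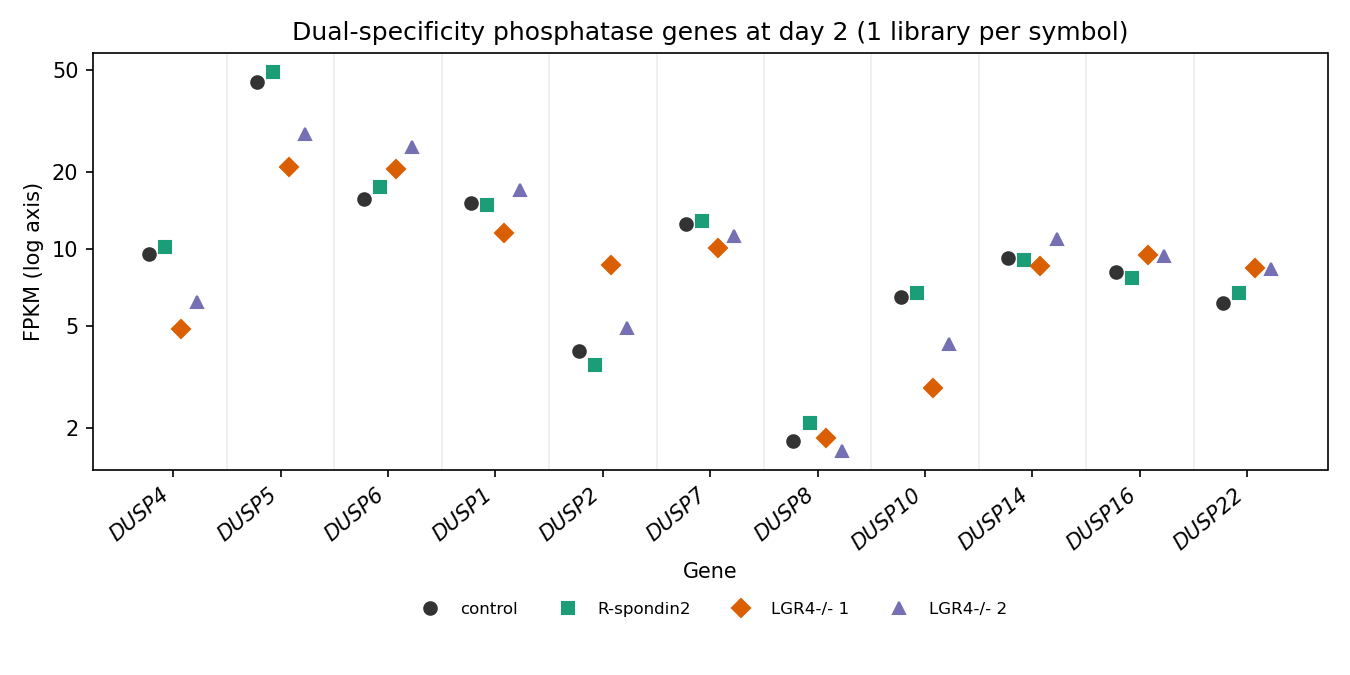
Level in FPKM (log axis) of DUSP4, DUSP5 and DUSP6 and of 8 other dual-specificity phosphatase genes that passed the filter, with 1 point per library as in the legend. DUSP10 shows the same order of libraries as DUSP4 and DUSP5, with 6.52 and 6.74 FPKM in the wild-type libraries and 2.86 and 4.25 FPKM in the LGR4-/- libraries.

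Further genes of the pathway, from lists written without a database, are given as counts beside the 10. Some genes stand in 2 lists. Over all genes tested, 47.8% were higher with R-spondin2. In both LGR4-/- libraries 35.5% of all genes were lower than control, 42.5% higher and 3.09% lower by 1.5-fold. Of 16 further feedback genes 14 passed the filter. With R-spondin2 8 were higher and 6 lower (median 0.02, range -0.20 to 0.25), none by 1.5-fold. In the LGR4-/- libraries 5 were lower and 6 higher in both. LRIG3, a membrane protein related to the receptor inhibitor LRIG1, was at 25.3 FPKM in control, 30.3 FPKM with R-spondin2, and 11.88 and 15.01 FPKM in the LGR4-/- libraries, the 1 gene of the list lower by 1.5-fold in both. LRIG1, which restrains receptor tyrosine kinases, was higher than control in both LGR4-/- libraries, by 0.66 and 0.47 on the log2(FPKM + 1) scale. DUSP2, a nuclear phosphatase, was at 4.01, 3.51, 8.66 and 4.93 FPKM, and PEBP1 at 142.8, 123.8, 186.4 and 180.0 FPKM. Feedback genes thus stood on both sides of control, as the phosphatases among the 10 did.

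Of 21 further target genes 18 passed, with 8 higher and 10 lower with R-spondin2 (median -0.09). PLAUR, the urokinase receptor, was at 3.60 and 2.25 FPKM, KLF4 at 4.03 and 2.67 FPKM, and ELK3, an ETS factor, at 9.18 and 13.4 FPKM in control and R-spondin2. In the LGR4-/- libraries 8 were lower and 6 higher in both, and EPHA4 and IER3 were lower by 1.5-fold in both. EPHA4, an ephrin receptor, was at 15.5 FPKM in control and 5.80 and 7.81 FPKM in LGR4-/- 1 and 2. IER3, an immediate-early gene whose product is a substrate of ERK, was at 230.4 FPKM and 111.3 and 147.9 FPKM, and EPHA2, another ephrin receptor, at 63.3 FPKM and 34.5 and 47.1 FPKM. For these 3 genes, as for DUSP4 and DUSP5, LGR4-/- 1 was the lowest library. Other targets lay near control, among them CCND1 (69.8, 64.0, 65.3 and 74.5 FPKM) and PHLDA1 (13.8 FPKM in LGR4-/- 1 and 14.3 FPKM in LGR4-/- 2).

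The 25 cascade components, from adaptors to RAS, RAF, MEK and ERK, all passed the filter. Their differences with R-spondin2 ran from -0.37 for RPS6KA1, a kinase activated by ERK, to 0.30 for KSR1, a scaffold of the cascade, with 15 higher and 10 lower. In the LGR4-/- libraries 10 were lower and 12 higher in both, and none differed by 1.5-fold. BRAF was at 3.92, 4.92, 4.90 and 5.70 FPKM and SOS2, an exchange factor for RAS, at 4.24, 4.92, 2.91 and 3.59 FPKM over control, R-spondin2, LGR4-/- 1 and LGR4-/- 2. Of the 11 transcription factors acted on by ERK that passed, 8 were higher with R-spondin2, against 47.8% of all genes tested. In both LGR4-/- libraries 7 were lower and 0 higher, against 35.5% and 42.5% of all genes. ETS1 lay farthest from control in the LGR4-/- libraries, at 18.3, 24.8, 10.2 and 12.3 FPKM, and ELK3 with R-spondin2. No gene of these lists passed an adjusted p of 0.05 in the limma fit.

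**Figure D4:**
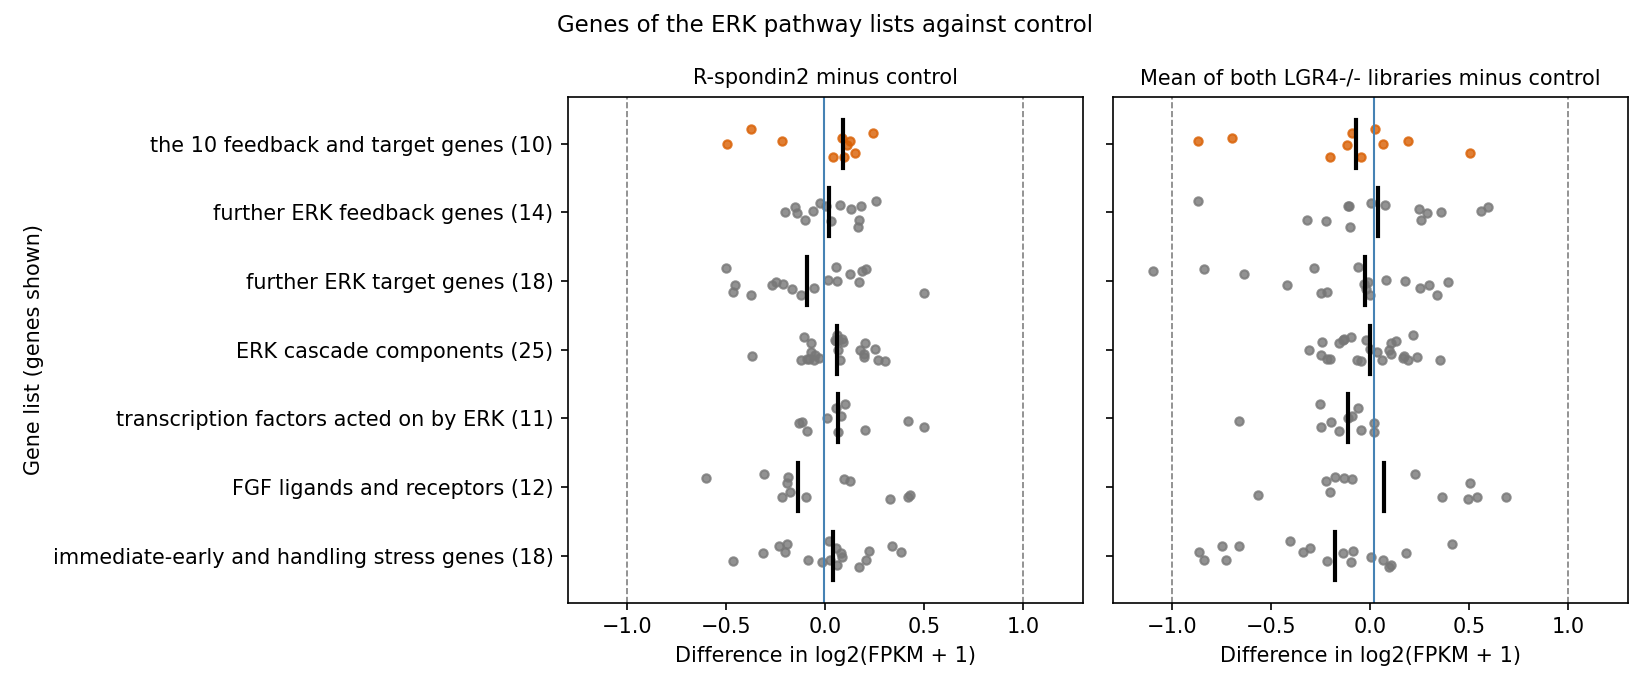
Difference from control in log2(FPKM + 1) for each gene of the ERK lists (points), with R-spondin2 on the left and the mean of both LGR4-/- libraries on the right; black bars are list medians, the blue line is the median of all 12697 genes and dashed lines mark 2-fold. Points of every list lie on both sides of the blue line, and EPHA4 is the 1 point beyond a dashed line.

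In the LGR4-/- libraries the immediate-early and handling stress genes were lower more often than higher. Of 18, 10 were lower and 2 higher in both, against 35.5% and 42.5% of all genes tested. IER5, at 20.2 FPKM in control and 9.91 and 11.5 FPKM in LGR4-/- 1 and 2, BTG2, at 11.4 and 6.10 and 6.93 FPKM, and IER3 were lower by 1.5-fold in both. GADD45B was at 32.9 and 14.6 and 25.0 FPKM. The heat shock genes of the list lay near control, with HSPA8 at 1066 FPKM in control and 1063 and 1235 FPKM in the LGR4-/- libraries. EGR1, which is not in this list, lay on both sides of control, and the summed level of the list was 1933, 2020, 1735 and 1997 FPKM over the 4 libraries.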

How the data were processed

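Human cells sorted from co-culture at day 2 were profiled by RNA-SEQ in 4 libraries: control, R-spondin2 and LGR4-/- 1 and 2. The authors deposited FPKM per gene, to 2 decimals, for 17894 genes with NCBI gene identifiers and RefSeq transcripts. The submitters' processing notes name BWA, Bowtie and RSEM and the build hg19, without roles; versions are not given in the sources used here. FPKM carry the authors' scaling for length and depth, so no count model was applied. Coordinates and sequences are of GRCh38 and not of the authors' build.

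Genes averaging 1 FPKM or more were compared as log2(FPKM + 1). LGR4-/- was compared with control in limma 3.58.1 under R 4.3.3, with 3 groups and Benjamini-Hochberg adjustment over 12697 genes, two-sided. The call was an adjusted p of 0.05 or, without a test, 2-fold. Depth per library was estimated from 8068 genes of 1 RefSeq transcript, by searching for the depth that turns low values (under 0.6 FPKM, under 1500 bases) into whole reads; lengths were those of GENCODE release 29. Of these values 76.3% to 77.7% lay within 0.2 of a whole read, against 38.0% to 43.6% with lengths shuffled. For genes with several transcripts the shortest was used, which gives the widest interval. Intervals are Clopper-Pearson (95%). The fit and the depth estimate were tested on simulated data. Nothing in the labels says how the LGR4-/- libraries were derived, so their spread may be technical or clonal.

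All 10 genes were named, with LGR4, the marker lists, at most 4 genes of each list per comparison by size of difference, and the 3 genes nearest to DUSP6. CCND1, PHLDA1 and HSPA8 were added after their values were seen. Members and lists were chosen with earlier results of these data known. The alternatives were a pseudocount of 0.1, no filter, a filter of 5 FPKM, median-ratio rescaling, a 1.5-fold call, each LGR4-/- library left out, a genotype grouping and a mean-variance trend in limma. The other steps ran in Python 3.11.15 (scipy 1.17.1, pandas 2.3.3, numpy 2.4.6); figures were drawn in matplotlib 3.10.9.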

Additional observations from a re-analysis of the deposited data

How the results depend on the processing

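No member was called 2-fold with R-spondin2 under any pseudocount, filter, scaling or fold tried, and 7 were higher with R-spondin2 in each (6 of the 9 left by a filter of 5 FPKM, which drops ETV5). The number of all genes called with R-spondin2 was 28, and became 139 with a pseudocount of 0.1, 14 with a filter of 5 FPKM and 255 with a 1.5-fold call. In LGR4-/- the 167 genes called 2-fold in both libraries became 346 with a pseudocount of 0.1 and 724 with a 1.5-fold call, and 191 to 448 when 1 LGR4-/- library was left out. The members called became 1 (DUSP5) with a 1.5-fold call on the log2(FPKM + 1) scale and 0 to 1 with a library left out, DUSP5 again, when LGR4-/- 1 stood alone. In limma, the 0 genes past the adjusted threshold became 1349 with the genotype grouping, and the 0 members became 2; the other limma settings gave 0 of each. Rescaling by median ratios moved the members lower in both LGR4-/- libraries from 4 to 5. DUSP5 was at -0.66 and -1.08 with LGR4-/- 1 and LGR4-/- 2 left out, DUSP4 at -0.55 and -0.85, and DUSP6 at 0.64 and 0.37, values that carry no test. Low genes are limited by reads, at 100 to 160 for SPRY1 and 136 to 166 for ETV5. No paired analysis was possible because control and R-spondin2 have 1 library each.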

Other observations

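Upstream of the pathway, 12 of 16 FGF ligand and receptor genes passed the filter. With R-spondin2 5 were higher and 7 lower, where 47.8% of all genes tested were higher. FGF17, a ligand of the primitive streak, was at 95.2 FPKM in control and 128.2 FPKM with R-spondin2. It was at 52.6 FPKM in LGR4-/- 1 and 78.1 FPKM in LGR4-/- 2. FGF4 and FGF19 were at 13.2 and 7.92 FPKM in control and 16.8 and 10.9 FPKM with R-spondin2. FGF18, at 1.57 and 0.69 FPKM, was the 1 gene of the list lower by 1.5-fold with R-spondin2, where 187 of 12697 genes were. In both LGR4-/- libraries 5 were lower and 6 higher, against 35.5% and 42.5% of all genes tested. FGF2 was at 12.4 FPKM in control and at 20.2 and 17.0 FPKM in LGR4-/- 1 and 2, FGFR2 at 15.5 FPKM and at 29.5 and 22.1 FPKM, and FGFR4 at 20.7 FPKM and at 31.8 and 27.9 FPKM. These values are a description, since no gene of the list passed an adjusted p of 0.05 in limma.

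Among the other MAP kinase phosphatases, 8 of 9 passed the filter, and 4 were higher and 4 lower with R-spondin2, all within 0.17 on the log2(FPKM + 1) scale. In both LGR4-/- libraries 2 were lower and 3 higher, against 35.5% and 42.5% of all genes tested. DUSP10, which acts on JNK and p38, had the largest difference, -0.74 as the mean of both LGR4-/- libraries. DUSP22 was at 6.16 FPKM in control and at 8.45 and 8.38 FPKM in LGR4-/- 1 and 2.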
